A study of Mus musculus with 8 samples.

Results

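The genes described here are 9 members and partners of the poly(ADP-ribose) polymerase (PARP) family, listed together as interferon-responsive. That name belongs to the list, and whether each gene responds to interferon was not measured in this series. The 9 were taken by name from the 20057 genes of the series: Parp3, Parp8, Parp9, Parp10, Parp11, Parp12, Parp14, Zc3hav1 and the ubiquitin ligase gene Dtx3l. They were measured by RNA-sequencing of endothelial cells sorted from subcutaneous B16.F10 melanomas, a transplantable mouse tumor line, grown in 8-week-old male C57BL/6 mice that had received 250000 tumor cells. The anti-CD40 group comprised 4 mice given 2 peritumoral injections of 30 µg of the agonistic CD40 mAb FGK4.5, on days 13 and 16, and the isotype group comprised 4 mice given the rat IgG2a antibody 2A3 on the same schedule. The labels place the harvest 1 day after the last injection for all 8 mice, whereas the study's methods name a later day as well without assigning it to a library. About 100000 cells negative for the leukocyte marker CD45 and positive for the endothelial marker CD31 were sorted per tumor, and 1 library was made from each. The comparison asked how expression in tumor endothelial cells differed under agonistic CD40 mAb treatment.

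PARP enzymes move ADP-ribose from NAD+ onto proteins or nucleic acids, most members of the family adding single units and a few building chains. Several family genes are induced by interferon (IFN), and their products act in antiviral defence and in the control of cytokine signalling. Endothelial cells carry receptors for both type I IFN and IFNγ, and respond to them with such genes. Dtx3l is an E3 ubiquitin ligase that binds the product of Parp9, and Zc3hav1 encodes ZAP, a zinc finger protein that binds viral RNA and has a PARP domain without catalytic activity.

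The libraries held between 2971689 and 64938728 reads on genes, a 21.9-fold span, and the deposited values are reads normalized between libraries, called normalized reads here. Isotype libraries 5L (2971689), 7N (3446781) and 8N (5790652) were shallower than every anti-CD40 library, of which the shallowest, 6R, held 12512772. Isotype library 9L held 35583141. Depth thus differed between the groups, and its part in the results was not tested. Endothelial markers such as Cdh5 and Pecam1 were abundant, with a sum over 10 genes of 40353 to 59498 normalized reads in the anti-CD40 group and 35599 to 49862 in the isotype group. RNA of other cells was present as well. The sum of 7 melanoma markers was 35745 to 60850 against 38674 to 93734, that of 5 fibroblast markers 65460 to 148954 against 49533 to 120575, and that of 5 mural cell markers 13623 to 22178 against 9912 to 32731. Leukocyte markers were low (98.8 to 215 over 6 genes against 95.3 to 254), T and NK cell markers reached 12.03 at most over 10 genes, with Cd3d at 0 in all 8 libraries, and macrophage markers summed to 325 to 547 against 208 to 491 over 10 genes. Ptprc, the gene of CD45, was at 9.99 ± 8.46 against 2.52 ± 2.04 normalized reads (SD, n = 4 each), a ratio of 3.96 (exact permutation p = 0.171). The leukocyte markers Tyrobp, Cd53 and Coro1a had ratios of 1.70, 1.30 and 1.05, and Laptm5 and Fcer1g 0.965 and 0.753. Of the macrophage markers 1 rose, Mrc1, at 39.0 ± 2.94 against 22.4 ± 7.46 normalized reads (SD, n = 4 each) without overlap (ratio 1.74, unadjusted p = 0.0189, limma), and Itgam was at 16.7 ± 5.58 against 8.23 ± 5.84 (unadjusted p = 0.0612, limma) at a ratio of 2.03. Of the other 8, Lyz2, C1qa, C1qb and Fcgr1 had ratios of 1.34 to 1.54, and Adgre1, Csf1r, Cd68 and C1qc had ratios of 0.907 to 0.978. Their part in the results was not tested. The isotype library of mouse 5L stood apart: it was the shallowest, it had the highest melanoma sum and the lowest endothelial, fibroblast and mural sums. The log2 fold change of each of the 9 genes is therefore given with and without it. In sorted bulk samples, fewer cells of a type and less RNA per cell cannot be told apart.

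All 9 genes were expressed above the filter on low values, a mean over 10 normalized reads in at least 1 group. The mean was higher in the anti-CD40 group for 8 of them, and their median ratio of means was 1.43. The threshold was that of the study, a 1.5-fold or larger ratio together with p no greater than 0.05 before adjustment, here from limma on log2(normalized reads + 1). By it, 2 of the 9 rose, Dtx3l and Parp12, and none fell. Of the 12969 genes tested, 1.28% passed in the upward direction. For 5 of the 9 genes (Dtx3l, Parp9, Parp11, Parp12 and Parp14) every anti-CD40 library exceeded every isotype library, a pattern shown by 1.09% of all genes tested, and the same 5 genes had p no greater than 0.05 before adjustment with a higher mean, against 1.67% of all genes. A positive log2 fold change was found for 8 of the 9 and for 51.3% of all genes. None of the 9 passed an adjusted p of 0.05 (limma, Benjamini-Hochberg), which 0.0154% of all genes, or 2 genes, did. DESeq2 on reads recovered from the values put 1 of the 9, Dtx3l, under an adjusted p of 0.05 with a higher level, as it did 0.486% of all genes tested, and edgeR put 0 there, against 0.0231% of all genes. The median log2 fold change of the 9 was 0.52, and that of all genes tested was 0.00.

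**Figure D1:**
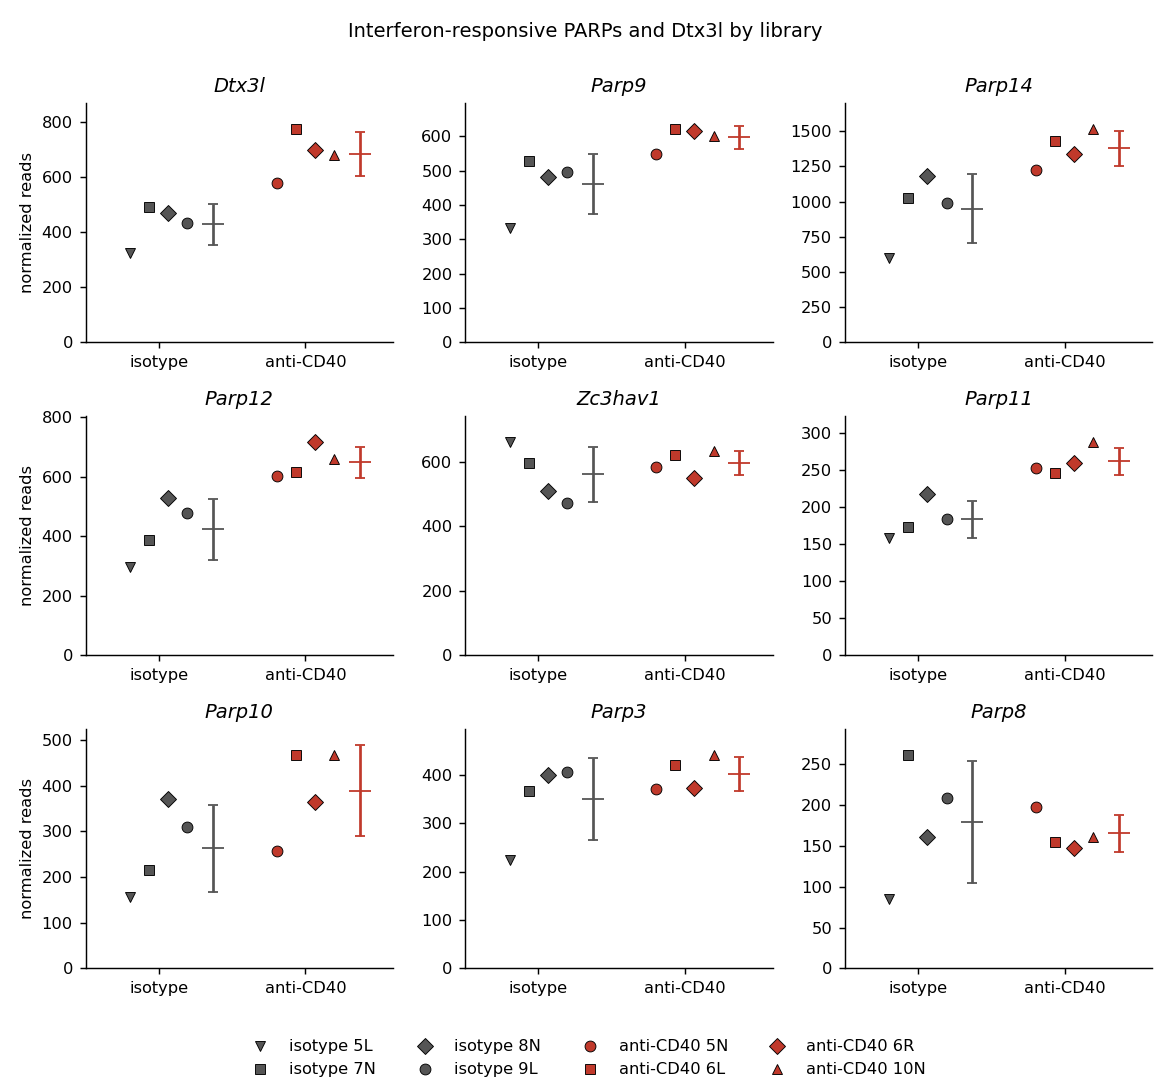
Normalized reads of each of the 9 genes (vertical axes, starting at 0) in the 4 isotype libraries (grey) and the 4 anti-CD40 libraries (red), with marker shape giving the mouse and the bar beside each group giving mean ± SD. The groups do not overlap for Dtx3l, Parp9, Parp14, Parp12 and Parp11, and isotype library 5L (triangle pointing down) is the lowest of all 8 for every gene except Zc3hav1.

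Dtx3l, Parp9 and Parp14 lie together on mouse chromosome 16 (mm10, GENCODE M21). Dtx3l occupies chr16:35926511-35939151 on the minus strand, Parp9 occupies chr16:35938470-35972605 on the plus strand, and Parp14 occupies chr16:35832874-35871544 on the minus strand, so that the 3 genes span 140 kb. Dtx3l and Parp9 point away from each other with overlapping starts, and they share 458 exonic bases, 8.0% of those of Dtx3l and 9.4% of those of Parp9. The library kit does not mark strand, so reads from the shared stretch cannot be assigned to one gene or the other. The promoter of Dtx3l, which lies within this head-to-head arrangement, is shown as the window from 250 bases before to 50 bases after its RefSeq start (GRCm38.p6, chr16:35938978-35939277, minus strand), for comparison with the windows of Parp12 and Parp11 further on. It was searched on both strands for the letters of the IFN-stimulated response element (ISRE, GAAANNGAAA), a motif of genes induced by type I IFN, and for those of the gamma-activated site (GAS, TTCNNNGAA), a motif of genes induced by IFNγ. Neither set of letters was found in it, so that no base is in capitals.
Dtx3l: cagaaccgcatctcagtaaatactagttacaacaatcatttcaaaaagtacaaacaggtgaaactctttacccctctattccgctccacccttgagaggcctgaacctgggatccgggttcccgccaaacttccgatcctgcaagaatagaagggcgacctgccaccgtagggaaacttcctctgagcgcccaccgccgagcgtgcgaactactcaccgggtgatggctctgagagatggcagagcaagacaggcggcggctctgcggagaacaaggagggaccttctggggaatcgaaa

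Dtx3l rose in anti-CD40 treated tumors. Its normalized reads were 579, 775, 696 and 679 in mice 5N, 6L, 6R and 10N of the anti-CD40 group, and 323, 490, 470 and 433 in mice 5L, 7N, 8N and 9L of the isotype group. The lowest anti-CD40 library, 5N, was above the highest isotype library, 7N. The means were 683 ± 80.6 and 429 ± 74.7 (SD, n = 4 each), a ratio of 1.59 and a log2 fold change of 0.68 (SE 0.16) with an unadjusted p of 0.00117 and an adjusted p of 0.362 by limma. It stood at place 42 among all genes tested when ordered by p. The exact two-sided permutation test over the 8 libraries gave p = 0.0286, the smallest that 4 against 4 allows. Without isotype library 5L the ratio was 1.47 and the call was lost, although the log2 fold change of 0.55 kept an unadjusted p of 0.00130. Without both 5L and 7N the call was made, at a log2 fold change of 0.59 (unadjusted p = 0.00157, limma). With DESeq2 on the recovered reads its adjusted p was 0.00588, and over all the alternatives the adjusted p ran from 0.00588 to 1.00.

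Parp9, whose product carries macrodomains that bind ADP-ribose and partners with Dtx3l, was higher in every anti-CD40 library by a smaller ratio. Its normalized reads were 550, 623, 615 and 600 in mice 5N, 6L, 6R and 10N, and 332, 528, 483 and 498 in mice 5L, 7N, 8N and 9L. The gap between the groups was small, the lowest anti-CD40 library being 550 and the highest isotype library 528. The means were 597 ± 32.9 and 460 ± 87.4 (SD, n = 4 each), and the log2 fold change was 0.39 (SE 0.15) with an unadjusted p of 0.0260 by limma. With its ratio of 1.30 Parp9 did not reach the threshold, and it reached it under none of the 24 alternatives. Without 5L the log2 fold change was 0.25 with an unadjusted p of 0.0517 by limma.

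Parp14, a large mono-ADP-ribosyltransferase with macrodomains, was also higher in every anti-CD40 library. Normalized reads of Parp14 were 1224, 1429, 1338 and 1519 in mice 5N, 6L, 6R and 10N, and 601, 1023, 1183 and 992 in mice 5L, 7N, 8N and 9L. The groups did not overlap, and isotype library 5L was far below the other 3. The means were 1377 ± 126 and 950 ± 247 (SD, n = 4 each), a ratio of 1.45 with a log2 fold change of 0.57 (SE 0.19) and an unadjusted p of 0.0120 by limma. Its ratio lay just under the threshold, and it passed when anti-CD40 library 5N (log2 fold change 0.63) or isotype library 8N (0.69) was left out. Without 5L the log2 fold change was 0.37.

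Dtx3l had a larger ratio of means than its partner Parp9, though the comparison of the 2 did not reach 0.05 after adjustment. The ratio of Dtx3l to Parp9 normalized reads was 1.05, 1.24, 1.13 and 1.13 in mice 5N, 6L, 6R and 10N, and 0.971, 0.928, 0.972 and 0.870 in mice 5L, 7N, 8N and 9L. Every anti-CD40 library was above every isotype library in this ratio, and 5L was not apart from the other isotype libraries. The means were 1.14 ± 0.0784 and 0.935 ± 0.0478 (SD, n = 4 each), a difference of 0.28 on the log2 scale with p = 0.0286 in an exact two-sided permutation test, or 0.0857 when adjusted over the 3 partner ratios computed. The part of the exonic stretch shared by Dtx3l and Parp9 in their ratio was not tested. The ratio of Parp14 to Parp9 was 2.31 ± 0.156 against 2.05 ± 0.278 (exact permutation p = 0.143, adjusted 0.171), and these groups overlapped.

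**Figure D2:**
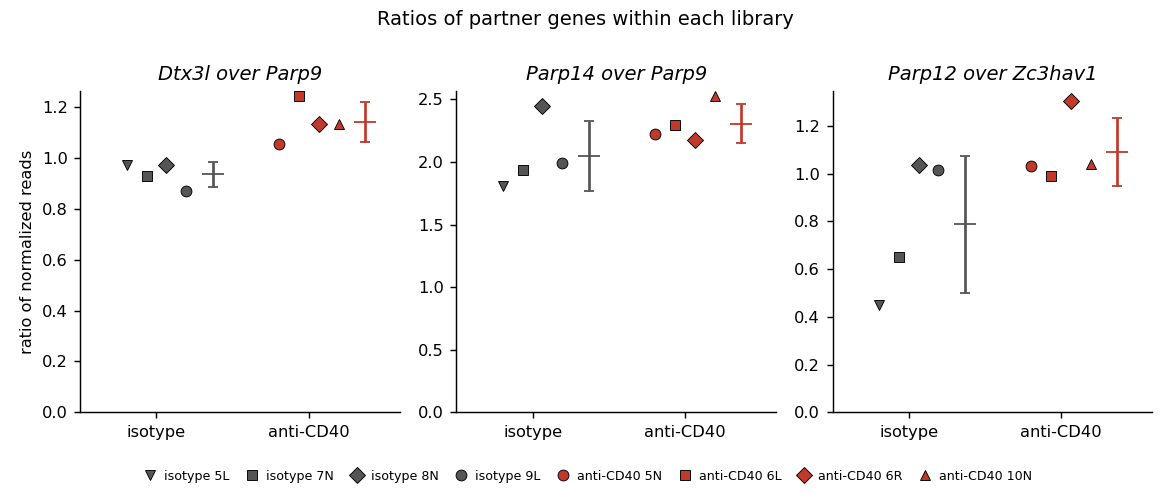
Ratio of normalized reads of 2 genes within each library (vertical axes, starting at 0) for Dtx3l over Parp9, Parp14 over Parp9 and Parp12 over Zc3hav1, in the isotype (grey) and anti-CD40 (red) libraries, with mean ± SD beside each group. For Dtx3l over Parp9 the anti-CD40 libraries lie between 1.05 and 1.24 and the isotype libraries between 0.870 and 0.972, while the groups overlap for the other pairs.

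Parp12 and Zc3hav1 both encode CCCH zinc finger proteins of the PARP family and lie 732 kb apart on chromosome 6, Parp12 at chr6:39086410-39118349 and Zc3hav1 at chr6:38305286-38354603, both on the minus strand. Parp12 is an active mono-ADP-ribosyltransferase. Its RefSeq promoter window (GRCm38.p6, chr6:39118300-39118599, minus strand), shown because Parp12 was the other gene past the threshold, held neither the ISRE nor the GAS letters, and the same was true of the window of Zc3hav1.
Parp12: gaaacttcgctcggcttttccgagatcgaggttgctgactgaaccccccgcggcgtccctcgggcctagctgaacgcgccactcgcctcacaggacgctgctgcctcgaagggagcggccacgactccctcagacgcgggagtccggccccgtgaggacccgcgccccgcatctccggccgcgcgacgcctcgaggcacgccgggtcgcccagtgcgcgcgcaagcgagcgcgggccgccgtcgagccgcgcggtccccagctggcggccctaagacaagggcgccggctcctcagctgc

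Parp12 rose in anti-CD40 treated tumors. Its normalized reads were 601, 615, 717 and 659 in mice 5N, 6L, 6R and 10N, and 298, 388, 528 and 478 in mice 5L, 7N, 8N and 9L. All 4 anti-CD40 libraries were above all 4 isotype libraries, among which the 2 shallowest, 5L and 7N, were the lowest. The means were 648 ± 52.3 and 423 ± 102 (SD, n = 4 each), a ratio of 1.53 and a log2 fold change of 0.64 (SE 0.17), with an unadjusted p of 0.00360 and an adjusted p of 0.657 by limma and an exact permutation p of 0.0286. The ratio was close to the threshold, and the call was lost without anti-CD40 library 6R (1.48) and without isotype libraries 5L (1.39) or 7N (1.49). Without 5L the log2 fold change was 0.49, and with both 5L and 7N left out the ratio was 1.29.

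Zc3hav1 did not pass the threshold. Its normalized reads were 583, 621, 550 and 633 in mice 5N, 6L, 6R and 10N, and 662, 597, 510 and 472 in mice 5L, 7N, 8N and 9L. The highest and the lowest of the 8 values were both isotype libraries, and 5L, the lowest library for the other 8 genes, was the highest here. The means were 597 ± 37.7 and 560 ± 85.9 (SD, n = 4 each), and the log2 fold change was 0.10 (SE 0.13) with an unadjusted p of 0.460 by limma. It was 0.19 without 5L and 0.28 (unadjusted p = 0.0388, limma) without both 5L and 7N. The ratio of Parp12 to Zc3hav1 was 1.09 ± 0.143 in the anti-CD40 group and 0.787 ± 0.286 in the isotype group, with p = 0.171 before and after adjustment (exact permutation test), and the isotype mean was 0.899 without 5L, where the ratio was 0.450.

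Parp11 is a small mono-ADP-ribosyltransferase with a WWE domain, and the window of 1 of its 2 starts held the letters of both IFN motifs. It lies at chr6:127446840-127494261 on the plus strand. RefSeq promoter windows were found for 6 of the 9 genes, 7 windows in all since Parp11 has 2 starts, and the ISRE letters occurred in 1 of the 7 and in 3.443% of 32851 windows of mouse genes. The GAS letters occurred in the same window and in 8.298% of all windows. This window, upstream of the first start (GRCm38.p6, chr6:127446590-127446889, plus strand), is shown with the 2 matches in capitals, the ISRE letters on the reverse strand (TTTCGATTTC as read on the strand shown) beginning 44 bases before the start and the GAS letters overlapping them from 37 bases before it. The window of the second start held neither. The letters are a description of the sequence and binding was not measured.
Parp11: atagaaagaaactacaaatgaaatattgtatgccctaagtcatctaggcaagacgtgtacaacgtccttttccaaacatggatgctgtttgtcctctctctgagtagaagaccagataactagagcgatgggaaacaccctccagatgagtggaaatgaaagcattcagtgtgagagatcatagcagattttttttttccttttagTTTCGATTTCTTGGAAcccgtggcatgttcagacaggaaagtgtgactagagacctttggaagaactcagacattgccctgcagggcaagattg

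Every anti-CD40 library exceeded every isotype library for Parp11. Its normalized reads were 253, 246, 259 and 289 in mice 5N, 6L, 6R and 10N, and 159, 174, 218 and 184 in mice 5L, 7N, 8N and 9L. Of the 9 genes it had the smallest coefficient of variation in the isotype group, 13.6%. The means were 262 ± 18.7 and 184 ± 25.0 (SD, n = 4 each), and the log2 fold change was 0.52 (SE 0.14) with an unadjusted p of 0.00433 by limma. Its ratio of 1.43 was under the threshold, which it passed without isotype library 8N only (1.52) among the alternatives, and with 1 library left out its log2 fold change varied from 0.45 without 5L to 0.60.

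Parp10, a mono-ADP-ribosyltransferase with RNA recognition and ubiquitin interaction motifs, had a similar ratio but overlapping groups. Parp10 had 258, 468, 363 and 468 normalized reads in mice 5N, 6L, 6R and 10N, and 156, 216, 370 and 310 in mice 5L, 7N, 8N and 9L. Anti-CD40 library 5N lay below isotype libraries 8N and 9L. The means were 389 ± 100 and 263 ± 95.2 (SD, n = 4 each), a ratio of 1.48 with a log2 fold change of 0.60 (SE 0.28) and an unadjusted p of 0.0549 by limma. It passed the threshold without 5N (1.65), 8N (1.71) or 9L (1.57), and the log2 fold change was 0.37 (unadjusted p = 0.139, limma) without 5L and 0.16 without both 5L and 7N. Of the exonic bases of Parp10, 205 are shared with Plec on the same strand.

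Parp3, which responds to DNA strand breaks, and Parp8, a mono-ADP-ribosyltransferase, did not pass the threshold under any of the 24 alternatives. Parp3 had 371, 420, 372 and 442 normalized reads in mice 5N, 6L, 6R and 10N, and 225, 366, 399 and 407 in mice 5L, 7N, 8N and 9L. Apart from 5L, the groups covered nearly the same range. Its log2 fold change was 0.23 (SE 0.19, unadjusted p = 0.241, limma) and 0.04 without 5L. Parp8 had 198, 154, 148 and 161 normalized reads in mice 5N, 6L, 6R and 10N, and 85.5, 262, 161 and 209 in mice 5L, 7N, 8N and 9L. Both the lowest and the highest value of Parp8 were isotype libraries. Its log2 fold change was -0.01 (SE 0.30, unadjusted p = 0.970, limma), -0.33 without 5L and 0.21 without 7N.

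Library 5L bore on most of these values. It held the lowest of all 8 values for 8 of the 9 genes, as it did for 29.7% of all genes tested, and leaving it out took the median log2 fold change of the 9 from 0.52 to 0.37 and the number past the threshold from 2 to 0. The 132 reads of Dtx3l in 5L give a 95% exact Poisson interval of 270 to 382 normalized reads, below that of the next isotype library, 9L (414 to 453). The 122 reads of Parp12 in 5L give 248 to 356, which overlaps the interval of 7N (330 to 452). For Parp8 the value rested on 35 reads, with an interval of 59.6 to 119, and for Parp11, with 65 reads, the interval of 123 to 202 overlapped that of 7N (136 to 218). These intervals cover counting error only. The melanoma marker sum of 5L, 93734 normalized reads, was above that of the other 7 libraries, and its part in the result was not tested. The variation between libraries, as the coefficient of variation, was larger in the isotype group for all 9 genes, 13.6% to 41.8% against 5.51% to 25.8%, and also for 70.9% of all genes tested. Isotype libraries 5L, 7N and 8N were shallower than every anti-CD40 library, and the part of depth in this variation was not tested.

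Scaling to endothelial RNA changed these values. When each library was scaled to the sum of the 10 endothelial markers, a setting added after the values were seen, the log2 fold changes of all genes shifted to a median of -0.16 and that of the 9 was 0.35. The 9 genes then included 0 with all anti-CD40 libraries above all isotype libraries, a pattern of 0.738% of the genes tested on that scale, with 2 of the 4 anti-CD40 libraries above the highest isotype library for Dtx3l and 3 for Parp12. On that scale the log2 fold change was 0.51 (SE 0.22, unadjusted p = 0.0319, limma) for Dtx3l and 0.48 (SE 0.22, unadjusted p = 0.0451, limma) for Parp12, with ratios of 1.43 and 1.42. Zc3hav1 was at -0.06, where the median of all genes was -0.16.

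**Figure D3:**
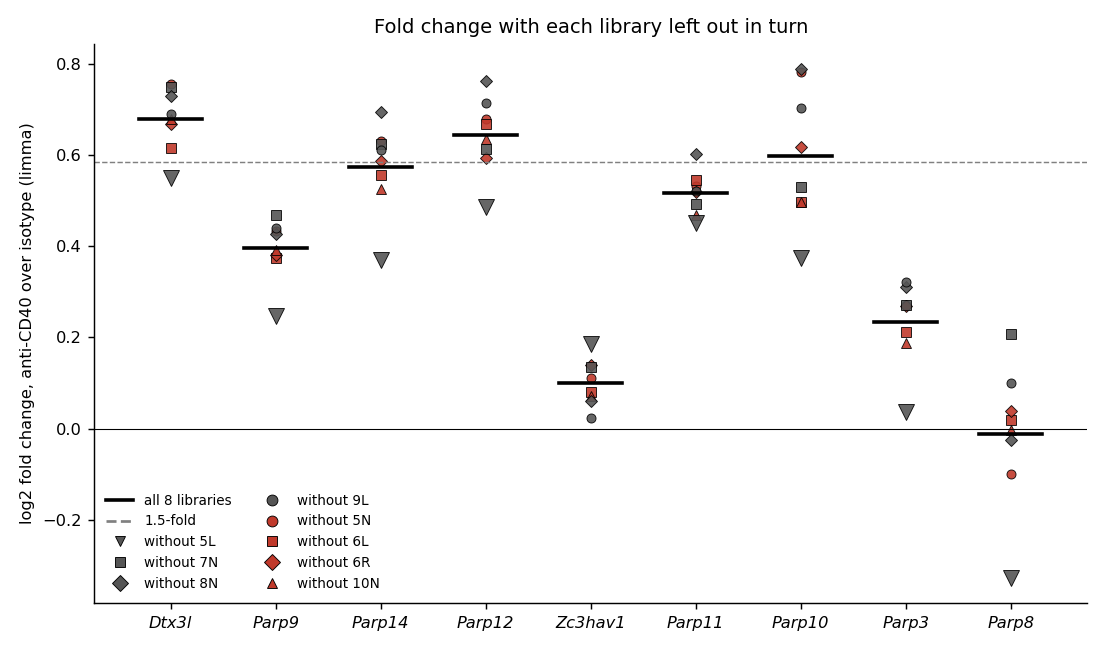
Log2 fold change of each of the 9 genes (vertical axis, anti-CD40 over isotype, limma) with all 8 libraries (black bars) and with each library left out in turn (points, shaped by mouse, grey for isotype and red for anti-CD40), the dashed line marking 1.5-fold on this scale, whereas calls use the ratio of means. Leaving out 5L (large triangle pointing down) gives the lowest value for every gene except Zc3hav1, for which it gives the highest, 0.19.

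The genes were also compared within a library as levels per kb of exon, the length being the union of all annotated exons of a gene. Which transcripts of a gene were expressed was not examined, so the order between genes is approximate. In the isotype group the order was Parp12 (106 normalized reads per kb), Parp14 (102), Parp9 (94.5), Parp3 (94.4), Zc3hav1 (86.0), Dtx3l (74.9), Parp10 (61.6), Parp11 (26.1) and Parp8 (20.2). The first 7 could not be separated from their neighbours in this order, since the ranges over the 4 libraries overlapped, whereas Parp10 was above Parp11 in all 4 with no overlap, and Parp11 and Parp8 overlapped. In the anti-CD40 group Parp12 (162) was above Parp14 (148) in each of the 4 libraries, though their ranges overlapped, and Parp14 was above Parp9 (123) without overlap. Dtx3l (119) moved from the sixth place to the fourth, ahead of Parp3 (109), Zc3hav1 (91.5) and Parp10 (91.1). Dtx3l overlapped with Parp9 and with Parp3, Parp3 was above Zc3hav1 without overlap, Zc3hav1 and Parp10 overlapped, and Parp11 (37.3) was above Parp8 (18.6) without overlap.

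The other PARP genes were examined with the same threshold. Of 8 family members outside the list, 0 passed the threshold in either direction and 0 had non-overlapping groups. Among all genes tested, 1.28% passed upward and 1.09% had every anti-CD40 library above every isotype library, so 0 of 8 is near these shares. The log2 fold changes of the 8 ran from -0.21 to 0.11 with a median of -0.08. Without isotype library 7N the median was 0.03. Among them Tnks2, a tankyrase that builds ADP-ribose chains, had 2429 ± 76.9 normalized reads in the anti-CD40 group and 2610 ± 460 in the isotype group (SD, n = 4 each). The 2 with the lowest p were Tnks, the other tankyrase, at a log2 fold change of -0.18 (SE 0.14, unadjusted p = 0.229, limma), and Tiparp, a target of the aryl hydrocarbon receptor, at -0.21 (SE 0.23, unadjusted p = 0.387, limma). For both, isotype library 7N was the highest, and Tiparp was at 0.04 without it.

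**Figure D4:**
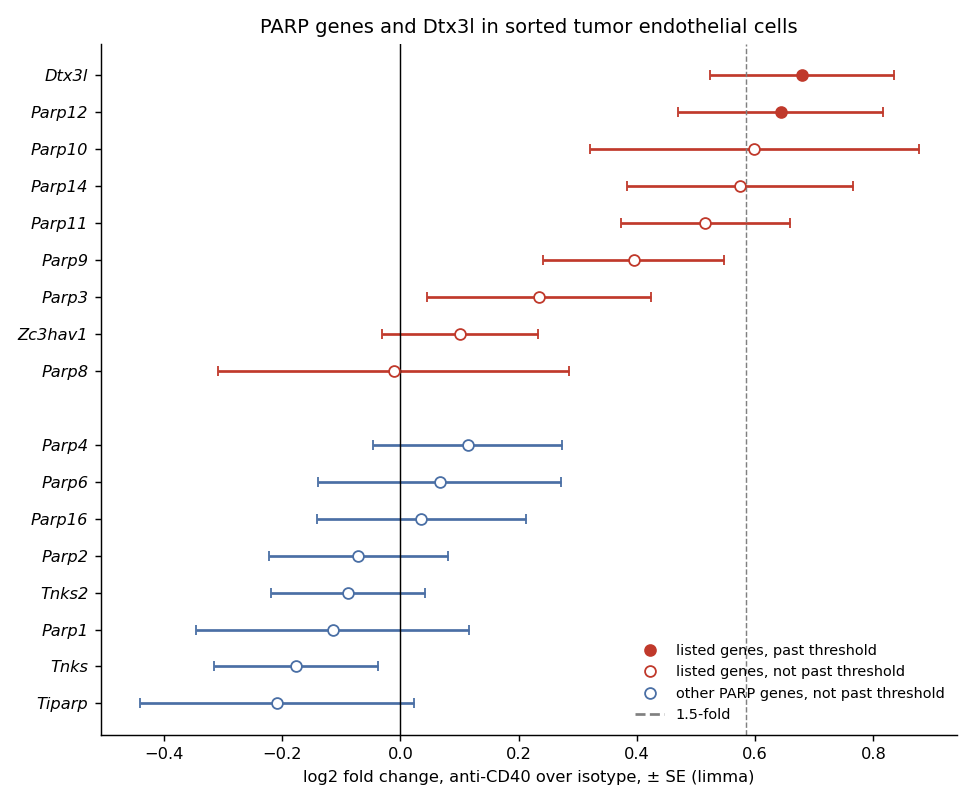
Log2 fold change with its SE (horizontal axis, limma, anti-CD40 over isotype) of the 9 listed genes (red) and of the 8 other PARP genes tested (blue), with filled points past the threshold and the dashed line at 1.5-fold on this scale, whereas calls use the ratio of means. The listed genes run from -0.01 for Parp8 to 0.68 for Dtx3l, and the other PARP genes from -0.21 for Tiparp to 0.11 for Parp4.

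Genes acting around the ADP-ribose mark were next examined, as ligases, erasers, partners and suppliers of NAD+. Since 1.28% of all genes tested passed the threshold upward, a count of 0 in lists this short is near that share. Of the other 4 Deltex ligases 0 passed (median log2 fold change 0.18, and -0.13 without 5L), with Dtx3 at 435 ± 90.3 against 439 ± 89.9 normalized reads (SD, n = 4 each), Dtx2 at a log2 fold change of 0.37 (unadjusted p = 0.169, limma) and Dtx1, low in all libraries, at 0.97 (unadjusted p = 0.371, limma), or -0.11 without 5L, which held no read of it. Of 7 hydrolases that remove ADP-ribose 0 passed (median 0.05, and -0.04 without 7N), with Adprh at 523 ± 111 against 531 ± 31.9 normalized reads (SD, n = 4 each), with Macrod1 at 0.75 (unadjusted p = 0.275, limma) on a mean of 11.3 against 7.20, and Adprhl2 at 0.27 (unadjusted p = 0.386, limma). In the limma fit with library quality weights, 1 of the 7 hydrolases passed as higher. Of 5 cofactors and relatives of ZAP 0 passed (median 0.11, and 0.02 without 5L), the E3 ligase gene Trim25 standing at 1084 ± 129 against 959 ± 149 normalized reads (SD, n = 4 each) and Rnf135 at a log2 fold change of 0.11 (unadjusted p = 0.590, limma).

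Among 11 genes of NAD+ synthesis and use, 1 rose and 0 fell (median log2 fold change 0.11, and -0.06 without 5L), where 1.28% of all genes tested rose. The 1 that rose was Bst1, which encodes the cell surface enzyme CD157, able to turn NAD+ into cyclic ADP-ribose. Bst1 had 122, 145, 145 and 130 normalized reads in mice 5N, 6L, 6R and 10N, and 58.7, 61.9, 79.0 and 88.0 in mice 5L, 7N, 8N and 9L. The groups did not overlap. The means were 136 ± 11.3 and 71.86 ± 13.96 (SD, n = 4 each), a ratio of 1.89 and a log2 fold change of 0.92 (SE 0.19), with an unadjusted p of 5.24e-04 and an adjusted p of 0.283 by limma, and the call held in all 8 fits that left out 1 library. Its relative Cd38 was at a log2 fold change of 0.24 (unadjusted p = 0.222, limma) and 0.08 without 5L, Nmnat1 was at 0.24 (unadjusted p = 0.332, limma), and Nampt, the rate-limiting enzyme of NAD+ salvage, was at 1405 ± 215 against 1308 ± 222 normalized reads (SD, n = 4 each).

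Among genes of IFN signalling, transcription factor genes and a feedback inhibitor rose, and no receptor or kinase gene passed the threshold. Of 14 receptors, kinases, transcription factors and feedback genes, 4 rose and 0 fell, where 1.28% of all genes tested rose. The median log2 fold change of the 14 was 0.24, or 0.08 without 5L. Irf1 had 784, 941, 1082 and 1330 normalized reads in mice 5N, 6L, 6R and 10N, and 305, 454, 709 and 613 in mice 5L, 7N, 8N and 9L. Its groups did not overlap, nor did those of Irf8. The ratio was 1.99 for Irf1 (unadjusted p = 0.00188) and 1.70 for Irf8 (0.00303), both by limma, and these 2 calls held in all 8 fits that left out 1 library. Irf7, at a ratio of 1.72 (unadjusted p = 0.0327, limma), and the feedback inhibitor Socs1, at 2.84 (unadjusted p = 0.0318, limma) on a mean of 23.7 against 8.35 normalized reads, kept the call in 3 of the 8 and lost it without 6L, 6R, 10N, 5L or 7N. With both 5L and 7N left out, 1 of the 14 genes passed, and the median log2 fold change of the 14 was 0.04. Irf8 lost its call in that fit. Its mean of 562 normalized reads in the anti-CD40 group was less than 1.5-fold above 387 in isotype library 8N and 395 in 9L. Stat2 (1.39, unadjusted p = 0.0279, limma) and the feedback protease gene Usp18 (1.42, unadjusted p = 0.0385, limma) did not reach the ratio. Jak1, the kinase shared by both receptors, was at a log2 fold change of 0.03. Reads from the IFN genes themselves were nearly absent, with Ifng, Ifna2 and Ifna4 at 0 in every library and Ifnb1 at 8 reads in the anti-CD40 group and 0 in the isotype group. Of the 8 reads, 7 were in 5N, the deepest library, and so few reads allow no comparison of the groups.

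**Figure D5:**
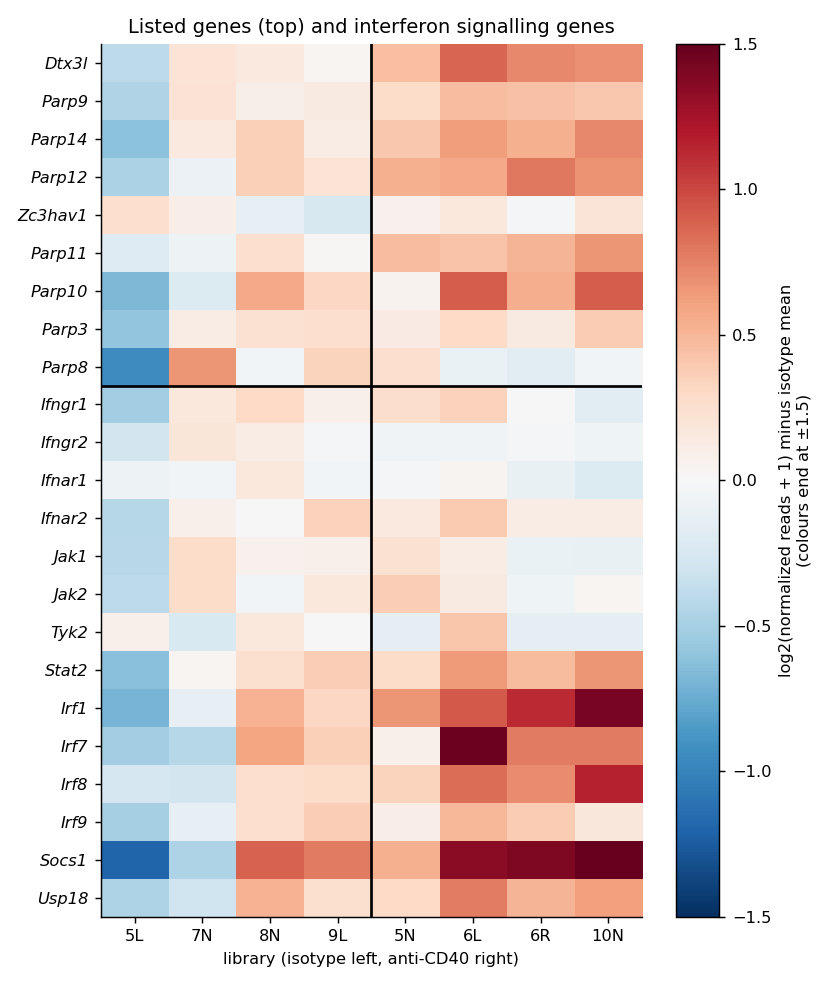
Log2(normalized reads + 1) minus the isotype mean (colour, ending at ±1.5) of the 9 listed genes (top) and 14 IFN signalling genes (below) in the isotype libraries 5L, 7N, 8N and 9L and the anti-CD40 libraries 5N, 6L, 6R and 10N. All listed genes except Zc3hav1 are lowest in 5L, as are all IFN signalling genes shown except Ifnar1, Tyk2 and Irf8. Dtx3l, Parp9, Parp14, Parp12, Parp11, Irf1 and Irf8 are higher in each of the 4 anti-CD40 libraries than in any isotype library.

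Within the groups, the 9 genes varied with Irf1 and with each other to different degrees. After the group means were removed, Pearson's r with Irf1 over the 8 libraries was 0.917 for Parp12, 0.909 for Parp10, 0.902 for Parp11, 0.882 for Parp14, 0.857 for Parp3, 0.71 for Parp9, 0.664 for Dtx3l and 0.404 for Parp8, and it was -0.662 for Zc3hav1. Without 5L, over 7 libraries, it was between 0.699 and 0.844 for Parp3, Parp10, Parp11, Parp12 and Parp14, and it was 0.158 for Dtx3l, 0.02 for Parp9, -0.785 for Parp8 and -0.287 for Zc3hav1. Zc3hav1 was negative with each of the other 8 genes, from -0.385 with Dtx3l to -0.867 with Parp12. Dtx3l and Parp9 had an r of 0.925, and without 5L over the 7 remaining libraries it was 0.848, whereas that of Dtx3l with Parp12 was 0.651 with 5L and -0.05 without it, and that with Zc3hav1 was -0.385 and 0.457. Dtx3l and Parp9 share 458 exonic bases whose reads cannot be assigned to either gene. Their part in the r of this pair was not tested. Library 5L alone held 28.2% of the squared deviations from the group means for Parp11 and 67.8% for Parp9. The genes most like Parp14 by this measure were Krt19 (0.997), Oas3 (0.991) and Plekho2 (0.986), those most like Dtx3l were Dctn6 (0.99), Vstm4 (0.987) and Epb41l1 (0.986), and those most like Parp9 were Spon1 (0.992), Fads3 (0.99) and Gp1bb (0.99). These correlations share libraries that differ in depth and are descriptions only.

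The genes next to the 9 loci were examined in the same way. Of 35 other genes within 100 kb of the 9, 24 were tested, 0 passed the threshold in either direction and 0 had all anti-CD40 libraries above all isotype libraries, with a median log2 fold change of -0.03. The shares of all genes tested were 1.28% passing upward and 1.09% without overlap, so 0 of 24 is near them. Beside the chromosome 16 cluster, Kpna1 was at -0.02 and Dirc2 at -0.05.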

How the data were processed

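Libraries were made from 10 ng of RNA with the TruSeq RNA v2 kit, which does not mark strand. Per the labels, the authors processed reads with CASAVA 1.8, Bowtie2 2.2.1 under TopHat2, Partek 6.6 and DESeq2 against mm10. The deposited values are coverage of genes in normalized reads (unit signal), counts divided by a size factor per library. In 99.9% of values, whole reads were recovered (within 0.1 read). The flooring and harvest-day correction described in the study's methods are not visible in these values. Genes with a mean over 10 in the larger group were tested with limma 3.58.1 in R 4.3.3 on log2(value + 1), with empirical Bayes trend. A call needed a 1.5-fold or larger ratio and p no greater than 0.05 before adjustment, as in the study. Alternatives were other pseudocounts and filters, other variance settings, each library left out, and, added later, edgeR 4.0.16, DESeq2 1.42.0 and voom on recovered reads, both shallowest isotype libraries left out and endothelial scaling. 1 gene of the IFN signalling list is not reported here. The fit was tested on simulated data, and no result of that test is given here. Each library is 1 tumor. Replicate numbers follow listing order and pair nothing. The 9 genes and the other lists were chosen with earlier results of these data known. From each list every passing gene, the 2 with the lowest p among the rest and the 1 with the largest mean were named, with the 3 genes most like Parp14, Dtx3l and Parp9. The markers named and the neighbours Kpna1 and Dirc2 were chosen after their values were seen.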

Additional observations from a re-analysis of the deposited data

Results flagged for a closer look

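In 62 groups of 4 libraries over 31 genes, 3 had a library far from the other 3 by Dixon's test, and chance gives about 1 in 20. None was among the 9 genes. Tnks stood at 1140 normalized reads in isotype library 7N, where the nearest library had 822. Tiparp stood at 1090 in the same library, with the nearest at 567. Trim25 stood at 738 in isotype library 5L, with the nearest at 1006. These flags were not tested further.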

How the results depend on the processing

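No paired analysis was possible because the labels give no replicate numbers, and the mouse names share a number between the groups once only (5N and 5L), with nothing to say what it marks. Within the anti-CD40 group, 6L and 6R also share a number, and what it marks is likewise not given. No label gives the harvest day for which the study's methods corrected, so it could not be fitted, and its part in the results was not tested. Leaving out 1 library gave 0 to 5 of the 9 genes past the threshold, 124 to 234 higher genes, 27 to 123 lower genes and 1 to 19 genes with an adjusted p under 0.05 (limma). The number of the 9 past the threshold was 1 (Dtx3l) without both shallowest isotype libraries and 0 under endothelial scaling. With no filter 331 genes were higher. Lower genes numbered 93 with no filter, 13 with a mean over 50, 57 without the trend, 70 with quality weights, 47 with edgeR, 58 with DESeq2, 68 with voom, 56 without both shallowest isotype libraries and 55 under endothelial scaling. Genes with an adjusted p under 0.05 numbered 1 with pseudocount 0.1, no filter, a mean over 50, no trend, robust fitting or voom, 4 with pseudocount 10, 17 with quality weights, 0 without moderation, 64 with DESeq2 and 29 under endothelial scaling. The sign changed for Parp3 without both shallowest isotype libraries (-0.00914) and for Parp8 without 6L (0.0189), 6R (0.0387), 7N (0.208) or 9L (0.0997). Zc3hav1 was at -0.0639 under endothelial scaling, which also moved the median of all genes, to -0.16. Parp8 was at -0.326 without 5L. The cause of the changes of Parp3 and Parp8 was not tested.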
